A study of Homo sapiens with 8 samples.

Results

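The collagen genes of HAP1 cells were followed here after knockout of BCDIN3D. The set was every gene symbol in the RNA-seq count files made of COL, a number, A and a number, such as COL4A5, which gave 44 of 57996 symbols. Of these, 22 were abundant enough to be tested (at least 0.475 CPM, the read count per library scaled to a common depth, in 2 or more libraries) and 22 were not. COL11A1, a fibril-forming chain, was nearly lost in the knockout libraries, with 6 counts against 861 in wild-type. COL24A1, COL9A3 and COL25A1 were also lower in the knockout. COL2A1, the basement membrane chains COL4A5 and COL4A6, and the type VI chains COL6A1 and COL6A2 were higher. Only COL11A1, COL2A1, COL4A5 and COL4A6 passed the test in every alternative fit. COL24A1, COL9A3, COL25A1, COL6A1 and COL6A2 each failed it in some.

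Collagens are secreted proteins whose chains wind into a triple helix. Some types use a single chain gene and others combine the products of several, so the supply of 1 chain can limit a whole type. Fibrillar collagens form the ropes of skin, bone and cartilage, type IV forms the sheet of basement membranes, type VI forms beaded filaments close to cells, and FACIT collagens sit on the surface of fibrils. Before and after secretion the chains are hydroxylated, chaperoned, trimmed and cross-linked by enzymes shared between types.

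HAP1 is a near-haploid human line that came from a chronic myelogenous leukaemia and grows attached to the dish. BCDIN3D is an RNA methyltransferase that acts on the 5′ end of RNA. Wild-type cells were set against 1 knockout line, clone 11, so a property of that clone cannot be told apart from the loss of the gene. Both groups were grown for 48 h in medium with 10% serum and carried no other treatment, and RNA of an integrity number of 10 went into stranded total RNA and small RNA libraries. Each group had 2 libraries per assay. Replicate 1 of each group bears the date 6 May in its title and replicate 2 the date 9 May. Whether the dates stand for separate cultures is not said in the labels, so the p-values reflect only how far these samples differ, and that spread may be technical.

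The RNA-seq libraries held 20065041 to 24415272 counts and the small RNA libraries 157706 to 346626. BCDIN3D itself, on chromosome 12, had 154 and 121 wild-type counts and 33 and 54 knockout counts, a log2 fold change of -1.52 ± 0.24 (SE, edgeR adjusted p = 2.06e-05). The remaining reads do not check the edit itself, since the labels do not say which part of the gene was edited. The label field that names the knockout clone is headed shRNA status, and the samples were taken here as a knockout clone. Of 10 blood markers 0 were tested, at a summed 0.237 to 1.13 CPM, and HBG1 had 0 counts in the 4 RNA-seq libraries. Of 10 epithelial markers 4 were tested and all 4 (EPCAM, KRT8, KRT18 and ESRP1) were lower in the knockout, with summed levels of 75.7 and 83.2 CPM in wild-type and 52.9 and 61.9 CPM in the knockout and GRHL2 at 0 counts. Only 1 of these 4, KRT8, was called by DESeq2, and EPCAM passed the abundance limit only through the wild-type libraries. Of 10 fibroblast markers 5 were tested and 1, PRRX1, was lower, with 119 counts against 3, and it too passed the limit only through wild-type; the list summed to 73.6 and 88.0 CPM in wild-type and 72.7 and 82.1 CPM in the knockout, and LUM and DCN had 0 counts. The part of these shifts in the collagen results was not tested. In bulk RNA, fewer cells that make a transcript and less of it per cell cannot be told apart.

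Of the 22 tested collagen genes 9 were called at an adjusted p under 0.05 in edgeR's quasi-likelihood test, 5 higher and 4 lower, or 40.9%. Over all 16233 tested genes 6.56% were called, 3.06% higher and 3.50% lower. The gene family was chosen with earlier results of these data known, so these shares are a description only. DESeq2 called 3 collagens higher and 2 lower, where it called 3.61% of all genes, and blocking by date called 5 and 5, against 9.55% of all genes. The median log2 fold change of the tested collagens was -0.06, against 0.00 for all tested genes, since the calls went both ways. Among fibrillar chains 1 of 7 tested was higher and 2 were lower, among basement membrane chains 2 of 4 were higher and 0 lower, and among all other classes 2 of 11 were higher and 2 lower. The groups did not overlap for 16 of 22 collagens (7 with the knockout above, 9 below), where 45.3% of all tested genes had groups apart in this way (23.5% above, 21.8% below). Of the 22 tested, 19 passed the abundance limit in both groups. COL11A1 and COL10A1 reached it in no knockout library, and so could be tested only through their wild-type level, and COL12A1 reached it in 1 library of each group.

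**Figure D1:**
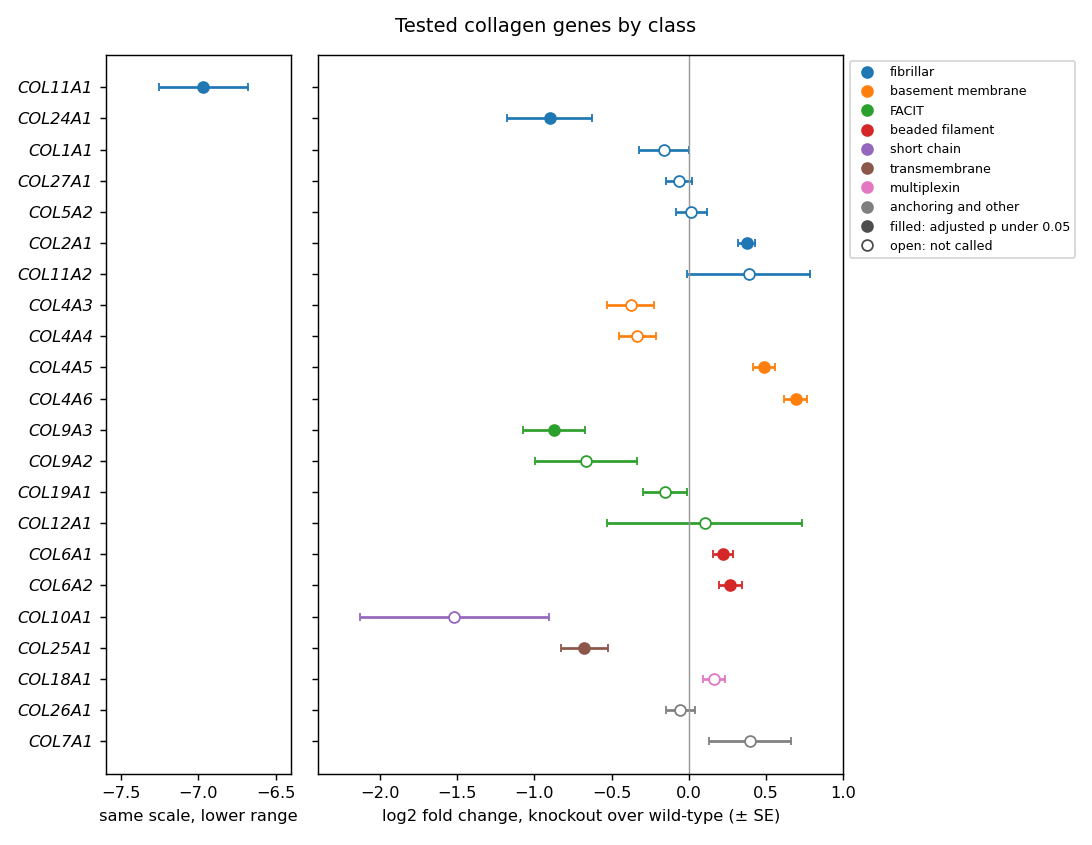
Log2 fold change of knockout over wild-type for the 22 tested collagen genes, coloured by class, with bars for the SE and filled points for an adjusted p under 0.05; the horizontal axis is interrupted and both pieces have the same scale. COL11A1 lies alone at -6.97, where the value rests on 3 counts in each knockout library and the bar understates its error. The other 8 filled points lie between -0.90 and 0.69.

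COL11A1 encodes the alpha 1 chain of type XI collagen, a minor fibrillar collagen that sits inside cartilage type II fibrils and limits their width. The gene lies on chromosome 1 from 102876473 to 103108522 (GRCh38.p14). The wild-type libraries had 432 and 429 counts, 20.8 and 17.4 CPM. Each knockout library had 3 counts, 0.142 and 0.151 CPM. The means were 19.1 ± 2.40 and 0.146 ± 0.00633 CPM (SD, n = 2 each), and the summed counts were 129 times higher in wild-type after scaling to depth (95% counting interval 59.2 to 354). The fitted log2 fold change was -6.97 ± 0.29 (edgeR adjusted p = 8.21e-25), and the difference within each date was -7.19 and -6.85. DESeq2 gave -7.03 with a wider SE of 0.62. The size rests on 3 counts in each knockout library, so the edgeR SE understates its error and the counting interval is the better guide. Leaving out any 1 library gave values between -7.09 and -6.84.

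Its RefSeq promoter window is printed because it is the start region of the collagen with the largest change. The window runs from 250 bases before the start site to 50 after it, at chr1:103108473-103108772 (GRCh38.p14, minus strand), and is written 5′ to 3′ on the gene's strand. Capitals mark the letters GGGCGG (a GC box) or CCAAT on either strand.
COL11A1: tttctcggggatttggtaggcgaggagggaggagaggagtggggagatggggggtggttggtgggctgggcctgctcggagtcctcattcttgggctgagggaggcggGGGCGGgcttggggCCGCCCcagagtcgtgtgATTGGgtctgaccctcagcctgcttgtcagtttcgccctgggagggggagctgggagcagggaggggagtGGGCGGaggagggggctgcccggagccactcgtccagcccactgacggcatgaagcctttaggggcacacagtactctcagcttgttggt
The window holds 3 GC boxes and 1 CCAAT. Of 35116 RefSeq windows of this length 45.0% hold a GC box and 34.6% a CCAAT. A match is a description of letters and says nothing about binding.

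The genes beside COL11A1 were not called. OLFM3, 879.5 kb before it, had a log2 fold change of -0.76 ± 0.30 (edgeR adjusted p = 0.226, and 0.0111 with the date as a block). Its value rests on wild-type replicate 1, without which it was -0.19 (adjusted p = 0.889), while it was called without any other 1 library (6.99e-07 to 0.0229). RNPC3, 417.2 kb after it, stood at -0.06 ± 0.13 (adjusted p = 0.899). Within 1 Mb there were 3 tested genes, OLFM3 included, of which 0 were called in the main fit.

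COL24A1, a fibrillar chain of developing bone, lies on the same chromosome (85729233 to 86156984). It had 63 and 72 wild-type counts and 28 and 37 knockout counts, 3.03 and 2.92 CPM against 1.32 and 1.86 CPM. Both knockout libraries lay below both wild-type libraries. The log2 fold change was -0.90 ± 0.27 (edgeR adjusted p = 0.0333). This call was lost with DESeq2 (adjusted p = 0.332) and without either wild-type library or knockout replicate 1 (0.122 to 0.278).

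COL2A1 encodes the only chain of type II collagen, the main fibril of cartilage and the vitreous, and also supplies the third chain of type XI. The gene spans 47972967 to 48006212 on chromosome 12. It had 10357 and 12537 wild-type counts and 13798 and 12966 knockout counts, and it took 44.6% and 44.9% of all collagen counts in wild-type and 48.9% and 47.8% in the knockout. In CPM it stood at 498 and 508 in wild-type and at 653 and 652 in the knockout. The knockout libraries were above both wild-type libraries, and the replicates lay close together. The log2 fold change was 0.38 ± 0.05 (edgeR adjusted p = 1.04e-06), a 1.30-fold rise, with 0.39 and 0.36 within the dates. The nearest tested gene, TMEM106C, 4.09 kb away, was also higher at 0.33 ± 0.07 (adjusted p = 0.000338), while SENP1 on the other side stood at -0.01 ± 0.08.

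The 4 other tested fibrillar chains were not called. COL1A1, the main chain of type I collagen of bone and skin, had 159 and 227 wild-type counts and 148 and 162 knockout counts, at a log2 fold change of -0.16 ± 0.16 (edgeR adjusted p = 0.718). COL5A2, a chain of type V collagen that starts type I fibrils, had 558 and 652 counts against 596 and 508, at 0.01 ± 0.10; this value changed sign with scaling by library size alone. COL27A1, a cartilage fibrillar chain, stood at -0.06 ± 0.08. COL11A2, the partner of COL11A1 in type XI, had 18 and 20 counts against 28 and 17, at 0.39 ± 0.40 (adjusted p = 0.724). The type XI trimer is built from COL11A1, COL11A2 and COL2A1 products, and of these 3 genes 1 fell, 1 was not called and 1 rose.

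The COL2A1 to COL11A1 ratio describes the shift in each library. It was 24.0 and 29.2 in wild-type and 4599 and 4322 in the knockout, where it rests on 3 COL11A1 counts per library. Ratios of CPM are not corrected for length, and are compared here only between libraries. Fibrillar collagen as a whole summed to 606.6 ± 6.81 CPM in wild-type and 733.0 ± 1.22 CPM in the knockout (SD, n = 2). Without COL2A1 the other 10 fibrillar genes summed to 104 ± 0.209 CPM in wild-type and 80.8 ± 0.745 CPM in the knockout, a log2 ratio of -0.36 where the full sum had 0.27. The sum therefore follows COL2A1, and these totals carry no test.

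**Figure D2:**
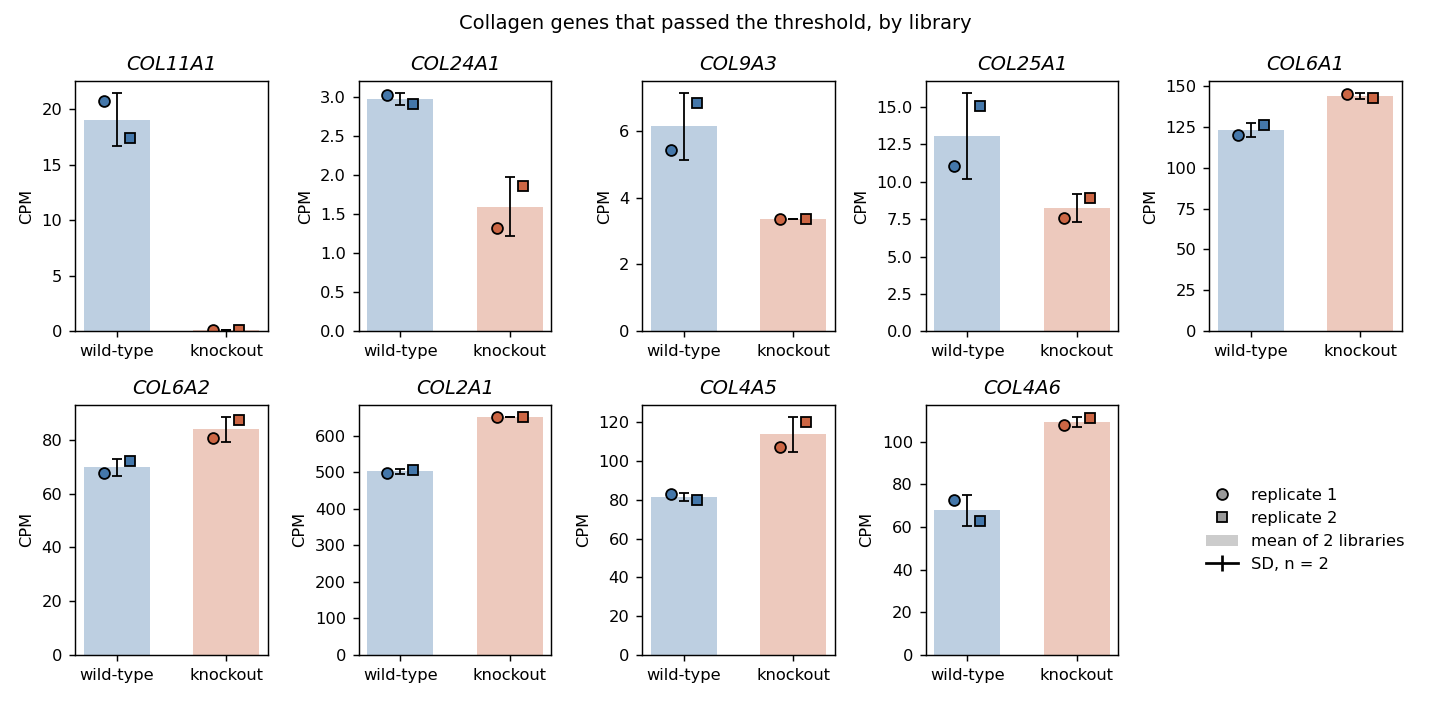
CPM of the 9 called collagen genes in each library: bars are the mean of 2 libraries, lines the SD, circles replicate 1 and squares replicate 2, with axes that start at 0 and differ between panels. In every panel both knockout points lie on the same side of both wild-type points, and COL11A1 stands at 0.142 and 0.151 CPM in the knockout. The genes were picked by the test on these same libraries, and 45.3% of all tested genes had groups apart in this way.

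Type IV collagen is the scaffold of basement membranes. Its 6 genes lie as 3 head-to-head pairs, each pair transcribed in opposite directions from a common start region, and they give different networks: the common one of COL4A1 and COL4A2, the COL4A3, COL4A4 and COL4A5 network of the glomerulus and lung, and a COL4A5 and COL4A6 network of smooth muscle and skin. The tested pairs differed in the sign of their values, a contrast that was not itself tested. COL4A5 and COL4A6 were both higher in the knockout, COL4A3 and COL4A4 both had lower values that did not pass the test, and COL4A1 and COL4A2 were hardly detected.

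The start regions of the 2 pairs that were tested are shown because the members of each pair had log2 fold changes of the same sign. Those of COL4A3 and COL4A4 were not called. Each window is 300 bases, from 250 before to 50 after the RefSeq start site (GRCh38.p14), written 5′ to 3′ on the gene's own strand. Capitals mark the bases that lie in the windows of both partners. COL4A6 is at chrX:108439409-108439708 (minus strand), COL4A5 at chrX:108439588-108439887 (plus strand), COL4A4 at chr2:227164156-227164455 (minus strand) and COL4A3 at chr2:227164374-227164673 (plus strand).
COL4A6: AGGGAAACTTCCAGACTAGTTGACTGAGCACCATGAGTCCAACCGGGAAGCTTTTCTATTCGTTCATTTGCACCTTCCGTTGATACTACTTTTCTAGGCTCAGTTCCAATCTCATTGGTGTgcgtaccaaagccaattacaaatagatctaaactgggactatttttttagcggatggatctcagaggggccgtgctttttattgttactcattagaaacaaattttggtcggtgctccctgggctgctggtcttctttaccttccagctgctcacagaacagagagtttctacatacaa
COL4A5: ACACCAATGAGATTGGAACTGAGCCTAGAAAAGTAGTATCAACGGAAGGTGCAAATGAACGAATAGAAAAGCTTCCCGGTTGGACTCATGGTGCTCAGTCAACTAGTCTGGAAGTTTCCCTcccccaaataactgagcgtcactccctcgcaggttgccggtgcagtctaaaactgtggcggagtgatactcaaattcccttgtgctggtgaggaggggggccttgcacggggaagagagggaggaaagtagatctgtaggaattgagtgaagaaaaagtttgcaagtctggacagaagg
COL4A4: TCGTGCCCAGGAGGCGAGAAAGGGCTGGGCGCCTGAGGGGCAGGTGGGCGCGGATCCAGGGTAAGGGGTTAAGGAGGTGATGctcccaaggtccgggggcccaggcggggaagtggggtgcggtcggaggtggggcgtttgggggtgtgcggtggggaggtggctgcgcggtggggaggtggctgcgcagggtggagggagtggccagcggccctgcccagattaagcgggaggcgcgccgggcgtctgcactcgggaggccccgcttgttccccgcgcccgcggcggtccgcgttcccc
COL4A3: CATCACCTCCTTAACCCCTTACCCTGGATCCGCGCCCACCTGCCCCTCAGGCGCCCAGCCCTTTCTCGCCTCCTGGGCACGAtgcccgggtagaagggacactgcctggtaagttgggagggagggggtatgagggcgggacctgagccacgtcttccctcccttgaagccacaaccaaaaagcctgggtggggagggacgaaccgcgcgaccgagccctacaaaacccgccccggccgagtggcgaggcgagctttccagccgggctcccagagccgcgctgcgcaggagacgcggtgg
The COL4A5 and COL4A6 windows share 121 bases, with 379 bases between the start sites, and the COL4A3 and COL4A4 windows share 82, with 418 bases between them. The shared stretch of COL4A5 and COL4A6 holds 2 CCAAT matches (both strands searched) and 0 GGGCGG, and the COL4A6 window has 1 more CCAAT outside it. The COL4A3 and COL4A4 windows hold 0 CCAAT, and that of COL4A3 holds 2 GGGCGG. None of the 4 holds TATAAA, which 11.5% of all 35116 windows do. These counts say only which letters lie in the windows.

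COL4A5, on chromosome X from 108439838 to 108697545, had 1726 and 1972 wild-type counts and 2272 and 2393 knockout counts. That is 83.0 and 79.9 CPM against 107.5 and 120.3 CPM. Both knockout libraries were higher than both wild-type libraries, with a log2 fold change of 0.48 ± 0.07 (edgeR adjusted p = 1.13e-06). COL4A6, the neighbour that runs the other way (108155614 to 108439458), had 1516 and 1548 counts against 2277 and 2210, or 72.9 and 62.7 CPM against 108 and 111 CPM. The groups were again apart, at 0.69 ± 0.07 (adjusted p = 5.88e-10). The log2 ratio of COL4A5 to COL4A6 was 0.19 and 0.35 in wild-type and -0.00 and 0.11 in the knockout. The outer neighbours ATG4A, 0.943 kb beyond COL4A6, and IRS4, 22.4 kb beyond COL4A5, stood at -0.15 ± 0.11 and 0.26 ± 0.36 and were not called.

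COL4A3 and COL4A4 lie head to head on chromosome 2. COL4A3 had 232 and 279 wild-type counts and 156 and 198 knockout counts, with a log2 fold change of -0.38 ± 0.15 (edgeR adjusted p = 0.158, and 0.0835 with the date as a block). COL4A4 had 395 and 463 counts against 288 and 325, at -0.33 ± 0.12 (adjusted p = 0.0941, and 0.0414 with the block, which makes it a call). For both genes the knockout libraries lay below the wild-type libraries. Without knockout replicate 2 both were called (0.0396 and 0.0387), and without knockout replicate 1 they stood at -0.17 and -0.21 (0.675 and 0.479). The log2 ratio of COL4A3 to COL4A4 was -0.77 and -0.73 in wild-type and -0.88 and -0.71 in the knockout, so the spread within the knockout was wider than the step between groups. The difference between the pairs was not tested.

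**Figure D3:**
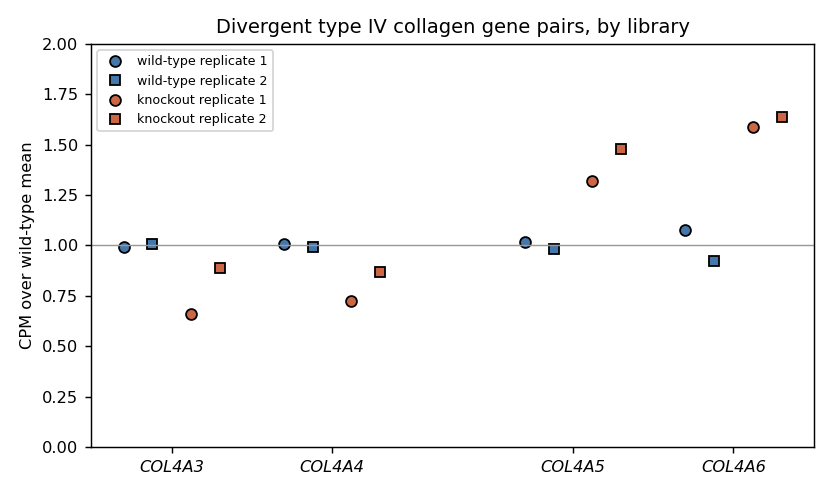
CPM of each tested type IV collagen gene divided by its wild-type mean, in each library, with wild-type in blue, knockout in orange, circles for replicate 1 and squares for replicate 2. COL4A5 and COL4A6 lie at 1.32 to 1.64 in the knockout, and COL4A3 and COL4A4 at 0.657 to 0.887.

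COL4A1 and COL4A2, the chains of the most widespread type IV network, had 1 and 11 wild-type counts and 1 and 13 knockout counts over both libraries. No difference could be detected at such counts. Type IV genes together summed to 179.5 ± 9.16 CPM in wild-type and 247.3 ± 15.2 CPM in the knockout, and without COL4A5 and COL4A6 to 30.3 ± 0.220 and 24.0 ± 3.69 CPM (SD, n = 2).

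Type VI collagen forms beaded filaments from COL6A1, COL6A2 and the third chain, COL6A3, COL6A5 or COL6A6. COL6A1 and COL6A2 lie 93.1 kb apart on chromosome 21, at 45981770 to 46005048 and 46098112 to 46132848. COL6A1 had 120.2 and 126 CPM in wild-type and 145 and 142.5 CPM in the knockout, a log2 fold change of 0.22 ± 0.06 (edgeR adjusted p = 0.0223). COL6A2 had 67.6 and 72.0 CPM against 80.7 and 87.3 CPM, at 0.27 ± 0.07 (adjusted p = 0.0165). Both knockout libraries were higher for each gene, by the smallest folds among the called collagens, 1.17 and 1.20. The log2 ratio of COL6A1 to COL6A2 stayed between 0.71 and 0.85 in the 4 libraries. The calls depended on the libraries and the tool. COL6A1 was lost with DESeq2 (0.0859), with library size alone (0.0546), without either wild-type library (0.109 and 0.397) and without knockout replicate 1 (0.0542). COL6A2 was lost with DESeq2 (0.0874), without either wild-type library (0.0572 and 0.328) and without knockout replicate 2 (0.189).

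The third chain of type VI was hardly present. COL6A3 had 0 and 2 wild-type counts and 7 and 3 knockout counts, COL6A6 had 5 and 12 against 3 and 1, and COL6A5 had 0 and 1 against 0 and 1. The wild-type to knockout ratio of summed counts, scaled to depth, was 0.180 for COL6A3 (95% counting interval 0.0192 to 0.846) and 3.83 for COL6A6 (1.25 to 15.7). Both rest on counts too low for the test across genes, and without the limit neither was called (edgeR adjusted p = 0.586 and 0.471).

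FACIT collagens bind to the surface of other fibrils. Of 10 genes 4 were tested and 1 was called. COL9A3, a chain of type IX collagen that coats type II fibrils in cartilage, had 113 and 169 wild-type counts and 71 and 67 knockout counts, or 5.43 and 6.84 CPM against 3.36 and 3.37 CPM. The groups did not overlap, and the log2 fold change was -0.87 ± 0.20 (edgeR adjusted p = 0.00244). The call was lost with DESeq2 (0.0567) and without wild-type replicate 2 (0.138). COL9A3 overlaps TCFL5 at its end on chromosome 20, and TCFL5 stood at 0.08 ± 0.10.

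The other type IX chains had lower values too, without a call. COL9A2 had 44 and 40 counts against 26 and 22, at -0.66 ± 0.33 (edgeR adjusted p = 0.301). COL9A1 had 9 and 24 wild-type counts and 2 and 0 knockout counts, below the abundance limit. Its summed ratio was 14.9 in favour of wild-type (95% counting interval 3.81 to 128), and without the limit it was called (edgeR adjusted p = 0.000798). It reached the limit in wild-type replicate 2 and in no other library. Leaving out wild-type replicate 1, knockout replicate 1 or knockout replicate 2 made it testable, through that wild-type library alone. The log2 fold changes were then -4.17, -6.975 and -2.85, the second resting on 0 knockout counts. The fit without knockout replicate 2 did not call it. COL19A1 and COL12A1, further FACIT genes, stood at -0.16 ± 0.14 and 0.10 ± 0.63. For COL12A1 the replicates differed more than the groups, at 5 and 17 wild-type counts against 3 and 18 knockout counts.

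COL25A1, a membrane-spanning collagen of neurons known as the source of a peptide found in Alzheimer plaques, spans 108808725 to 109302658 on chromosome 4. It had 230 and 373 wild-type counts and 160 and 177 knockout counts, 11.1 and 15.1 CPM against 7.57 and 8.90 CPM. Both knockout libraries were lower, at -0.68 ± 0.15 (edgeR adjusted p = 0.00213). The call was lost without wild-type replicate 2 (0.275). The other 3 membrane-spanning collagens were below the limit. Among them COL13A1 had 6 and 4 wild-type counts and 1 and 0 knockout counts, a ratio of 9.02 (95% counting interval 1.28 to 391). Without the limit COL13A1 was not called (edgeR adjusted p = 0.4997).

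The remaining tested collagens were not called. COL18A1, the basement membrane multiplexin that yields endostatin, had 74.1 and 70.1 CPM in wild-type and 82.7 and 78.5 CPM in the knockout, at 0.16 ± 0.07 (edgeR adjusted p = 0.237). COL7A1, the chain of anchoring fibrils under the epidermis, had 51 and 42 counts against 58 and 53, at 0.39 ± 0.27. COL26A1 stood at -0.06 ± 0.10. COL10A1, the marker of hypertrophic cartilage, had 14 and 15 counts against 7 and 2, at -1.52 ± 0.61 (adjusted p = 0.157). COL10A1 lies inside NT5DC1, which had 412 to 516 counts per library. Whether the counting used strand is not given in the sources used here, so reads of overlapping genes may be mixed, which also touches COL18A1 and its antisense genes.

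The 22 collagens below the limit had 1 to 35 counts over the 4 libraries, with a median of 11.5. They summed to 192 counts in wild-type and 100 in the knockout, not scaled to depth, of which COL9A1 gave 33 and 2. By these unscaled counts 13 had more in wild-type, 6 had fewer and 3 had the same number. Wild-type replicate 2 was the deepest library, with 24415272 counts in all. The same split over all genes below the limit is not given here, so these numbers are no result about collagens. Counting intervals lay wholly above a ratio of 1 for COL9A1, COL6A6 and COL13A1 and wholly below it for COL6A3. These intervals cover counting error only and leave out the spread between replicates. Without the limit edgeR called COL9A1 (adjusted p = 0.000798), but not COL6A6 (0.471), COL13A1 (0.4997) or COL6A3 (0.586). Among well known members of this group were COL1A2, the second chain of type I, with 3 and 2 counts in wild-type against 0 and 2 in the knockout, and COL3A1 of type III, with 6 and 10 against 1 and 5. The type V chain COL5A1 had 2 and 11 against 1 and 4. COL5A3 had 0 and 5 counts in wild-type and COL22A1 0 and 4, and each had 0 in both knockout libraries. A count of 0 allows up to 3 counts in a group, so these differences were not detectable at this depth.

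**Figure D4:**
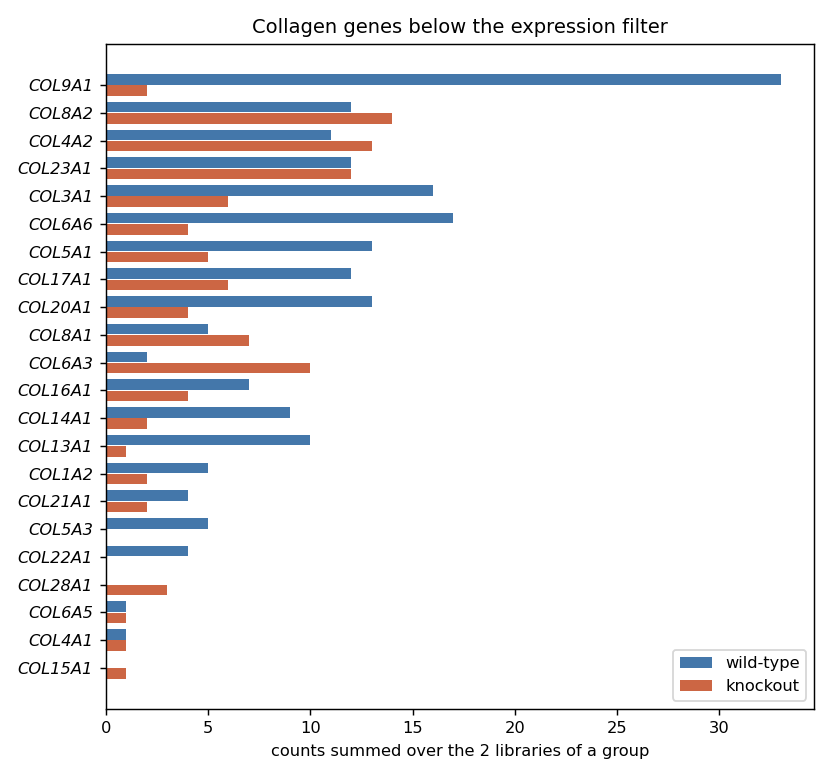
Counts of the 22 collagen genes below the abundance limit, summed over the 2 libraries of each group, with wild-type in blue and knockout in orange. COL9A1 has the most counts, 33 in wild-type and 2 in the knockout, and COL6A3 has 2 and 10.

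All 44 collagens together took 0.112% and 0.114% of counts in wild-type and 0.132% and 0.135% in the knockout. Their summed level was 1124 ± 9.50 CPM in wild-type and 1350.0 ± 19.8 CPM in the knockout (SD, n = 2). The 6 with most counts (COL2A1, COL6A1, COL6A2, COL4A5, COL4A6 and COL18A1) held 82.0% and 81.2% of collagen counts in wild-type and 88.1% and 87.4% in the knockout. By class, beaded filaments had a log2 ratio of sums of 0.24 and multiplexins 0.16, while FACIT genes had -0.42 and membrane-spanning collagens -0.67. Single genes dominate these sums. In wild-type COL25A1 gave 13.1 of the 13.8 CPM of membrane-spanning collagens, and COL18A1, not called, all 72.1 CPM of multiplexins. COL19A1, not called, gave 13.25 of the 23.2 CPM of FACIT genes. These are descriptions with no test, and long transcripts weigh more in them.

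Genes that act on collagen or bind it were read from 9 lists of 84 genes, 65 of them tested. Of these 65, 7 were higher and 4 lower, or 16.9%, with a median log2 fold change of 0.08. Over all tested genes 6.56% were called (3.06% higher, 3.50% lower), with a median of 0.00. The lists were chosen with earlier results of these data known, so the shares are a description only. Among the 4 lower genes, TLL1 and PXDN passed the abundance limit only through wild-type. The 5 lists of maturation enzymes and chaperones had 2 of 35 higher and 3 lower. Blocking by date gave 11 higher and 4 lower over the 9 lists (9.55% of all genes called), and DESeq2 gave 4 and 4 (3.61%).

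The largest changes among maturation genes lay in extracellular trimming and cross-linking. TLL1, a tolloid protease that removes the C-propeptide of fibrillar collagens, had 27 and 36 wild-type counts and 0 and 1 knockout counts, a summed ratio of 56.8 (95% counting interval 9.83 to 2279, edgeR adjusted p = 4.62e-07). PXDN, the peroxidase that makes the sulfilimine cross-link of type IV collagen, had 21 and 22 counts against 0 and 1, a ratio of 38.8 (6.60 to 1567, adjusted p = 3.01e-05). LOXL1, a lysyl oxidase that acts on elastic fibres and collagen, had 131 and 169 against 49 and 62, at -1.28 ± 0.21 (adjusted p = 1.05e-05). TLL1 and PXDN lay under the 0.475 CPM limit in both knockout libraries, and so could be tested only through their wild-type level. These 3 were the lower maturation genes, 1 of 7 tested in propeptide removal and 2 of 6 in cross-linking. The summed levels of both lists hardly moved. Propeptide removal had 79.35 and 82.4 CPM in wild-type and 80.2 and 85.7 CPM in the knockout. Cross-linking had 33.8 and 38.3 CPM against 32.4 and 35.85 CPM, and with the date as a block 1 of its genes was called higher.

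Intracellular processing showed smaller shifts. LEPRE1, also named P3H1, a prolyl 3-hydroxylase, was higher by 0.25 ± 0.08 (edgeR adjusted p = 0.0450), the single call among 7 tested genes of proline hydroxylation. FKBP10, a collagen chaperone of the endoplasmic reticulum, was higher by 0.21 ± 0.06 (adjusted p = 0.0257), the single call among 9 in folding and export. Both calls were lost with DESeq2 (0.192 and 0.0953), with library size alone (0.0913 and 0.0639) and without any of wild-type replicate 1, wild-type replicate 2 or knockout replicate 2 (0.142 to 0.409). The LEPRE1 call was also lost with upper-quartile factors (0.0638) and with no filter (0.0602). Of 6 lysine modification genes 0 were called by edgeR and 0 by DESeq2; LEPREL4 was nearest, at 0.21 ± 0.07 (adjusted p = 0.0862, and 0.0228 with the date as a block).

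Receptors moved both ways. DDR2, a receptor kinase that fibrillar collagen switches on, had 41 and 39 wild-type counts and 152 and 130 knockout counts, at 1.96 ± 0.22 (edgeR adjusted p = 2.19e-09). ITGA1, the collagen-binding integrin chain with a preference for type IV, had 129 and 173 counts against 77 and 63, at -0.96 ± 0.20 (adjusted p = 0.000556). The other 6 tested receptors were not called. Among matrix partners 3 of 9 were higher and 0 lower, with THBS1, a thrombospondin, at 0.90 ± 0.17 (adjusted p = 0.000301) and SPARC, a collagen-binding matrix protein, at 0.32 ± 0.07 (0.00237, and 0.243 without wild-type replicate 2). Of 11 tested regulators 1 was called, TGFB2, a growth factor that raises collagen synthesis, at 0.75 ± 0.19 (0.00765, but 0.117 with DESeq2, 0.0671 without wild-type replicate 2 and 0.161 without knockout replicate 1). SOX9, the cartilage factor that switches on COL2A1, had 1 count in the 4 libraries. Only 2 of 8 collagen-degrading enzymes were tested, and 0 were called by edgeR or DESeq2, with CTSK at -0.10 ± 0.53.

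**Figure D5:**
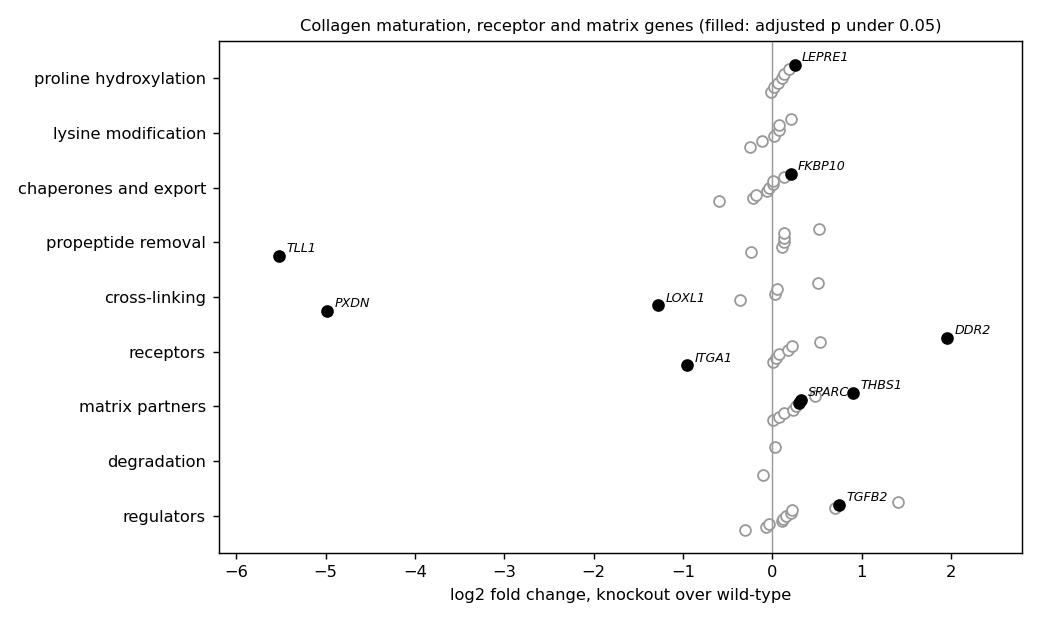
Log2 fold change of knockout over wild-type for the 65 tested genes of the 9 lists, 1 list per row, filled for an adjusted p under 0.05. TLL1 and PXDN lie farthest left, where the fitted value rests on 1 knockout count and gives no size, and DDR2 lies farthest right at 1.96.

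The miR-29 microRNAs are known repressors of many collagen mRNAs, and were read in the small RNA libraries. Their mature sequences, from RefSeq, are shown for the 3 arms that share a seed, bases 2 to 8, in capitals.
hsa-miR-29a-3p: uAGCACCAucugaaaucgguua
hsa-miR-29b-3p: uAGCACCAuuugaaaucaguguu
hsa-miR-29c-3p: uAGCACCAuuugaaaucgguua
Of 7 miR-29 names 4 were tested, and 0 were called by edgeR, by DESeq2 or at an unadjusted p under 0.05; 0.366% of 546 tested microRNAs were called. miR-29b-3p had 125 and 71 wild-type counts and 119 and 208 knockout counts, at a log2 fold change of 0.51 ± 0.53 (edgeR adjusted p = 0.999). miR-29c-3p had 146 and 71 against 119 and 208, at 0.36 ± 0.55, and its counts equalled those of miR-29b-3p in 3 of 4 libraries, so these arms are not independent readings. miR-29a-3p had 0 and 2 counts against 15 and 0 and was not tested. In small RNA counts simulated at this depth for 369 microRNAs, all given the same spread, 0% of those changed by 8-fold were called.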

How the data were processed

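The authors deposited raw read counts, 1 file per library, per gene symbol or mature microRNA. Per the submitters' processing notes, FastQC, cutadapt, STAR, SAMtools, featureCounts, Subread and hg38 were used; their roles and versions, the annotation and the strand setting were not given in the sources used here. Groups came from the sample labels. The members and lists were chosen with earlier results of these data known. Counts were fitted in R 4.3.3 with edgeR 4.0.16 (filterByExpr with a minimum count of 10, TMM, robust quasi-likelihood F test of knockout against wild-type, Benjamini-Hochberg over all 16233 genes or 546 microRNAs). CPM uses the TMM-scaled library sizes, and SE is the absolute log2 fold change over the root of F. Ratios of summed counts have exact 95% intervals that cover counting error only. Alternatives were DESeq2 1.42.0, library size alone, upper-quartile factors, no filter, the date as a block and each library left out. The titles give replicates of the same number the same date, which pairs them; their deviations correlated at 0.0825 (RNA-seq) and -0.0947 (small RNA) across tested rows. Replicates differed by more than sampling noise (chi-square per degree of freedom 3.95 and 4.80 in RNA-seq, 30.6 and 29.0 in small RNA). The fit was tested on simulated RNA-seq counts of 15871 genes, where 62.5% of genes changed 1.5-fold and 87.5% of genes changed 2-fold were called. Every simulated gene had the same biological spread between replicates (5.53%), and the changed genes were drawn from all abundances. These shares therefore need not hold for a single collagen. Named genes were all collagens, up to 2 called members each way per list or otherwise the member of smallest p, the nearest tested neighbours of called collagens and the miR-29 names. SOX9 and the epithelial markers KRT18 and ESRP1 were named outside this rule, after their values were seen. Coordinates and sequences are RefSeq's (GRCh38.p14); 32 of 44 collagens had a promoter window.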

Additional observations from a re-analysis of the deposited data

How the results depend on the processing

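COL11A1, COL2A1, COL4A5 and COL4A6 kept their calls under all alternatives run, and all 9 called collagens kept their sign. DESeq2 called 3 collagens higher and 2 lower; leaving out 1 library gave 3 to 4 higher and 1 to 6 lower. The replicate block kept the 9 calls and made 1 more, COL4A4 (adjusted p = 0.0414), and changed no other call of a collagen. Over all genes, edgeR called 497 higher and 568 lower, DESeq2 255 and 331, the block 767 and 784, and fits without 1 library 240 to 684 and 340 to 705. The 9 lists had 4 higher with DESeq2, 11 with the block and 4 to 10 without 1 library. With library size alone the log2 ratio was 0.25 for the fibrillar sum and 0.24 for all collagens, and 36.7% of all calls were higher against 46.7%. Uncalled values that changed sign were, with library size alone, COL5A2 (-0.012), miR-29a-5p (0.19) and miR-3129-5p (0.12), and, with upper-quartile factors, miR-29a-5p (0.0100). Without 1 library the uncalled values that crossed 0 were COL5A2 (-0.058 to 0.084), COL19A1 (-0.37 to 0.035), COL12A1 (-1.71 to 1.08), COL26A1 (-0.15 to 0.033), CTSK (-0.77 to 0.96), OSTC (-0.12 to 0.10), PCBP3 (-0.29 to 0.00041), RNPC3 (-0.14 to 0.025), SENP1 (-0.086 to 0.062), TCFL5 (-0.054 to 0.20), ZNHIT6 (-0.26 to 0.021), miR-29a-5p (-0.88 to 5.52), miR-29c-3p (-0.21 to 1.14), miR-3129-3p (-6.04 to 2.34), miR-3129-5p (-0.20 to 0.95) and miR-455-3p (-0.78 to 0.14). For these the cause was not tested. Small RNA depth limits the microRNA values, and 1 to 35 counts in all limit each of the 22 untested collagens.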

Other observations

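Several collagen genes carry microRNAs inside them, 14 mature names in 7 genes, of which 5 were tested and 0 were called by edgeR, by DESeq2 or at an unadjusted p under 0.05. miR-8073, inside COL4A2, had 36 and 15 wild-type counts and 1 and 7 knockout counts, at a log2 fold change of -3.06 ± 1.51. miR-455-5p and miR-455-3p, inside COL27A1 and known in cartilage, stood at -1.82 ± 1.70 and -0.25 ± 1.37. miR-3129-3p and miR-3129-5p, inside COL5A2, stood at -0.54 ± 2.60 and -0.05 ± 2.31.

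Markers of cartilage cells were read because COL2A1, COL11A1 and the type IX genes are best known from cartilage. Of 9 such markers found, 2 were tested and 0 were called by edgeR, by DESeq2 or with the date as a block, and the list summed to 5.22 and 5.48 CPM in wild-type and 5.73 and 6.57 CPM in the knockout. Of 10 endothelial markers 1 was tested and 0 were called, and PECAM1 had 0 counts in the 4 libraries.

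The nearest tested neighbours of COL24A1, COL25A1 and COL9A3 and those that flank the type VI pair were not called. Within 1 Mb, 2 of 15 tested genes were higher around COL24A1 and 0 of 14 were called around COL25A1. Around COL9A3 2 of 37 were higher and 1 lower. Higher genes were 2 of 25 around COL2A1, TMEM106C included, and 2 of 17 around COL6A1, COL6A2 included. Over all tested genes 3.06% were higher and 3.50% lower. ZNHIT6 and ODF2L beside COL24A1 stood at -0.12 ± 0.10 and -0.11 ± 0.11. OSTC and SEC24B-AS1 beside COL25A1 stood at -0.01 ± 0.07 and -0.87 ± 0.41. OGFR and DIDO1 beside COL9A3 stood at 0.17 ± 0.07 and 0.05 ± 0.06, and PCBP3 and LSS, which flank the type VI pair, at -0.15 ± 0.26 and 0.08 ± 0.07.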
